A study of Mus musculus with 20 samples.

Results

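The genes studied here build the machinery that displays peptides of a cell's own proteins on major histocompatibility complex (MHC) class I molecules. They were chosen by name and comprise 10 of the 43346 genes counted: the immunoproteasome subunits Psmb8, Psmb9 and Psmb10, the peptide transporter subunits Tap1 and Tap2, the loading factor Tapbp, the light chain B2m, the heavy chains H2-K1 and H2-D1, and the transcriptional activator Nlrc5. All 10 were found by symbol, and all 10 passed the filter on low counts. RNA was sequenced from small frozen pieces of 20 breast tumors, 1 from each of 20 female [BALB/c-neuT x FVB/J] F1 mice, aged up to 20 weeks. Every tumor was driven by the inherited neuT transgene, an activated rat Her2/neu oncogene, and there was no normal tissue for comparison. Sample titles divide the tumors into 9 Lo and 11 Hi, and the meaning of these words is not given in the sources used here. Tumors are named by title, such as Lo 1 or Hi 10.

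In the textbook pathway, the immunoproteasome replaces 3 catalytic subunits of the constitutive proteasome and cuts cytosolic proteins into peptides. The Tap1-Tap2 transporter moves these peptides into the endoplasmic reticulum, where tapasin, the product of Tapbp, helps load them onto a heavy chain paired with beta-2 microglobulin, the product of B2m. Cytotoxic T cells read the displayed peptides, and interferons and Nlrc5 are known to raise transcription of the pathway in many cell types.

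Total counts ran from 38765682 to 65465755 per tumor (median 49881779), and a ribosomal RNA locus took 6.29% to 27.7% of them. Expression was scaled as CPM, which brings the counts of each library to the same total, with edgeR's TMM factors, and levels of different genes were compared as RPKM, which is CPM per kilobase of listed length. Of 8 epithelial markers, all 8 passed the filter, with a summed level of 3134 to 4213 CPM in Lo and 2700 to 4313 CPM in Hi. The 10 leukocyte markers summed to 322 to 726 CPM in Lo and 383 to 536 CPM in Hi. T cell markers were scarce, since the 9 genes together gave 3.07 to 6.04 CPM in Lo and 3.57 to 8.62 CPM in Hi. Because the samples were bulk tissue, fewer cells of a type and less RNA per cell cannot be told apart.

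Members lay on 3 chromosomes (mm10). B2m is on Chr2 (122147686 to 122153083), and Nlrc5 (94472763 to 94527272) and Psmb10 (105935728 to 105938392) are on Chr8. The other 7 are on Chr17, in or beside the MHC: Tapbp at 33915899 to 33929288, H2-K1 at 33996017 to 34000333, Psmb9 at 34181988 to 34187764, Tap1 at 34187553 to 34197225, Psmb8 at 34197721 to 34201454, Tap2 at 34203527 to 34216321 and H2-D1 at 35262730 to 35267499. Psmb9 and Tap1 overlap by 212 bases in the count table. Their RefSeq windows of 300 bases around the starts share 275 bases (34187306 to 34187580).

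Since the members were found to vary together, their promoters were searched, with motifs picked after the sequences were seen, so the matches are a description only. RefSeq (GRCm38.p6) gave windows from 250 bases before to 50 after the start for 8 of the 10 genes. TGACG, the core of the X2 box of class I promoters, followed after 20 bases by ATTGG, the inverted Y box, occurred in the windows of B2m, H2-K1 and H2-D1 on the gene's strand. On either strand, 31 of all 32851 windows held this arrangement (0.0944%), whereas TGACG alone was in 20.8% and CCAAT, the reverse complement of ATTGG, in 37.4%. Capitals in the sequences mark these boxes and, upstream in B2m and H2-K1, an interferon-response-like motif. The motif in B2m was GAAANNGAAA (in 3.44% of windows), and that in H2-K1 was GAANNGAAA read on the other strand (in 7.52%). Positions count back from the start of transcription, the upstream one of a pair listed for H2-K1.
B2m, chr2:122147519-122147658, plus strand, positions -168 to -29, outside B2m and within the span of Patl2 on the other strand: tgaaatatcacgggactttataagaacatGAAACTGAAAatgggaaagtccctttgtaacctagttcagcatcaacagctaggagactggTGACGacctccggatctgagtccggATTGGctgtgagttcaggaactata
H2-K1, chr17:34000348-34000478, minus strand, positions -131 to -1, upstream of the gene: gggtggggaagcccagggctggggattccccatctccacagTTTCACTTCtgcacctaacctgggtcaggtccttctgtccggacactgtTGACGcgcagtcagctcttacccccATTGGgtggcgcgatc
H2-D1, chr17:35262993-35263022, plus strand, positions -101 to -72, boxes only: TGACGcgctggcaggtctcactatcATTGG

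The H2-D1 boxes lie within an annotated UTR (GENCODE M21), so no more of that window is shown. GAANNGAAA was found in the H2-D1 window too, at position -150 on the other strand. Aligned on the boxes without gaps, 140 bases of the H2-K1 and H2-D1 windows were identical at 120 positions, against 51 for B2m and H2-K1. The windows of Tap1 and Psmb9 held TGACG and CCAAT, but not in this spacing.

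Levels spanned more than 2 orders of magnitude per length. B2m was highest, with a median of 533 RPKM over the 20 tumors, followed by H2-D1 (181 RPKM), H2-K1 (82.1 RPKM) and Tapbp (38.4 RPKM), an order that held in all 20 tumors at each step. Psmb10, Psmb8 and Tap2 lay close together, with medians of 20.3, 16.8 and 16.8 RPKM. Psmb10 exceeded Psmb8 in 14 of 20 tumors, and Psmb8 exceeded Tap2 in 10 of 20, so these neighbors could not be ordered. Tap1 (8.05 RPKM), Psmb9 (4.37 RPKM) and Nlrc5 (1.83 RPKM) closed the order, again in all 20 tumors at each step. With the length of the longest coding transcript in GENCODE M21 instead of the listed length, an alternative added after the data were seen, the medians of Psmb9 (11.8 RPKM), Tap1 (14.9 RPKM), Psmb8 (28.2 RPKM) and H2-K1 (132 RPKM) rose by more than 1.5 times, and Psmb8 passed Psmb10.

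**Figure D1:**
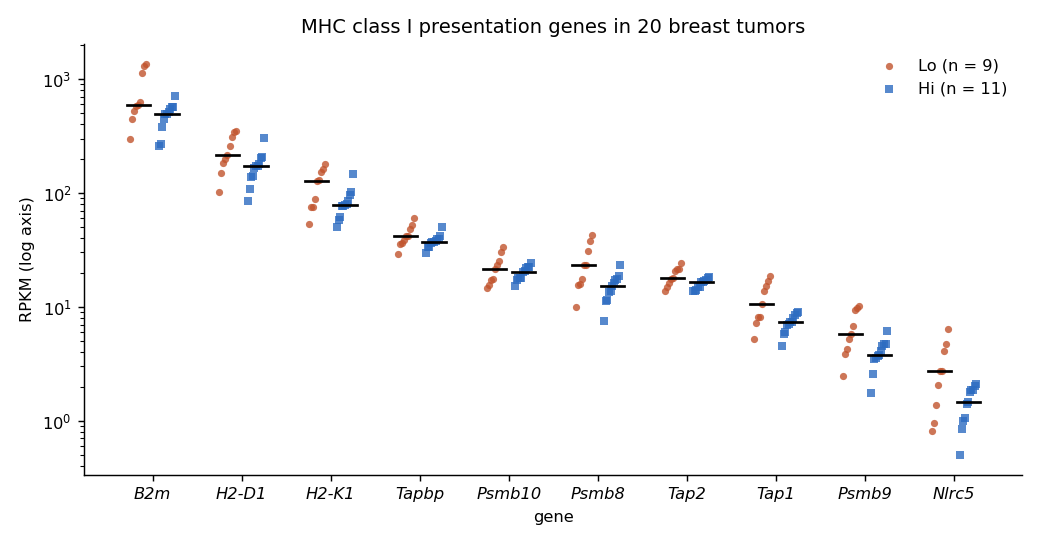
RPKM (log axis) of each gene in the 9 Lo tumors (circles) and 11 Hi tumors (squares), with a bar at the median of each group. Nlrc5 spread widest and Tap2 least, and the top points of B2m, near 1364 RPKM, were Lo tumors.

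The activator Nlrc5 varied most between tumors. Its level ran from 0.811 to 6.42 RPKM (median 2.73 RPKM) in Lo and from 0.499 to 2.10 RPKM (median 1.46 RPKM) in Hi, a 12.9-fold range over all tumors on 198 to 2659 counts. Lo 1 was highest and Hi 1 lowest, and 5 Lo tumors lay above every Hi tumor while the groups otherwise overlapped.

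Among the genes of the displayed complex, B2m encodes the light chain shared by all classical class I molecules. It ran from 295 to 1364 RPKM (median 589 RPKM) in Lo and from 256 to 702 RPKM (median 493 RPKM) in Hi. The 3 tumors above the highest Hi tumor were Lo 2, Lo 1 and Lo 4. The heavy chain gene H2-K1 had 53.4 to 181 RPKM (median 128 RPKM) in Lo and 49.8 to 148 RPKM (median 78.5 RPKM) in Hi. H2-D1, the second heavy chain gene, had 102 to 347 RPKM (median 215 RPKM) in Lo and 84.6 to 306 RPKM (median 172 RPKM) in Hi. For both, Lo 1 was highest, Hi 1 lowest, and 3 Lo tumors exceeded all Hi tumors. H2 genes are polymorphic among mouse strains and the mm10 genome is that of C57BL/6, so reads from BALB/c and FVB/J alleles may have been lost, which was not tested.

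Transporter and loading genes fell into a wide and a narrow pattern. Tap1 had 5.19 to 18.5 RPKM (median 10.7 RPKM) in Lo and 4.52 to 9.10 RPKM (median 7.40 RPKM) in Hi. Its partner Tap2 moved far less, with 13.9 to 24.2 RPKM (median 17.9 RPKM) in Lo and 13.6 to 18.3 RPKM (median 16.5 RPKM) in Hi. The highest and lowest tumors differed 4.09-fold for Tap1 but 1.78-fold for Tap2. Tapbp was also narrow, at 28.8 to 60.1 RPKM (median 41.7 RPKM) in Lo and 29.4 to 50.1 RPKM (median 37.4 RPKM) in Hi. Lo 1 was the highest tumor for all 3 genes.

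In the immunoproteasome, Psmb8 and Psmb9 ranged widely and Psmb10 narrowly. Psmb8 had 9.99 to 42.9 RPKM (median 23.2 RPKM) in Lo and 7.55 to 23.4 RPKM (median 15.3 RPKM) in Hi. Psmb9 had 2.49 to 10.2 RPKM (median 5.72 RPKM) in Lo and 1.75 to 6.14 RPKM (median 3.80 RPKM) in Hi. Hi 1 was lowest and Lo 2 highest for both, a 5.68-fold and a 5.83-fold range. Psmb10 had 14.5 to 33.5 RPKM (median 21.5 RPKM) in Lo and at least 15.4 RPKM (median 20.1 RPKM) in Hi, a 2.31-fold range over all tumors, with 3 Lo tumors above every Hi tumor.

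On the log2 CPM scale, the SD over the 20 tumors was 0.91 for Nlrc5, 0.66 for B2m, 0.65 for Psmb9, 0.62 for Psmb8, 0.57 for H2-D1, and 0.55 for Tap1 and for H2-K1. It was 0.32 for Psmb10, 0.26 for Tapbp and 0.24 for Tap2. Thus 7 of 10 members had an SD of at least 0.5, as did 20% of the 18883 genes tested. The median SD was 0.56 over the members and 0.25 over all genes tested.

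The members rose and fell together across tumors. Pearson's r of log2 CPM over 20 tumors had a median of 0.876 over the 45 pairs, from 0.653 for Tap2 with Psmb10 to 0.970 for Psmb8 with Psmb9, whereas the median over all pairs of genes tested was near 0 (-0.0041). These values share libraries and scaling and are given as a description. Tap2 and Psmb10 were the least alike to the rest, with median r of 0.765 and 0.805, and Psmb8 was the most alike (0.947). The pairs with overlapping or neighboring genes were not the only close ones, since B2m on Chr2 and Psmb9 on Chr17 had r = 0.963. Within the 9 Lo tumors the median r was 0.928, and within the 11 Hi tumors it was 0.810, with the lowest pair at -0.07.

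**Figure D2:**
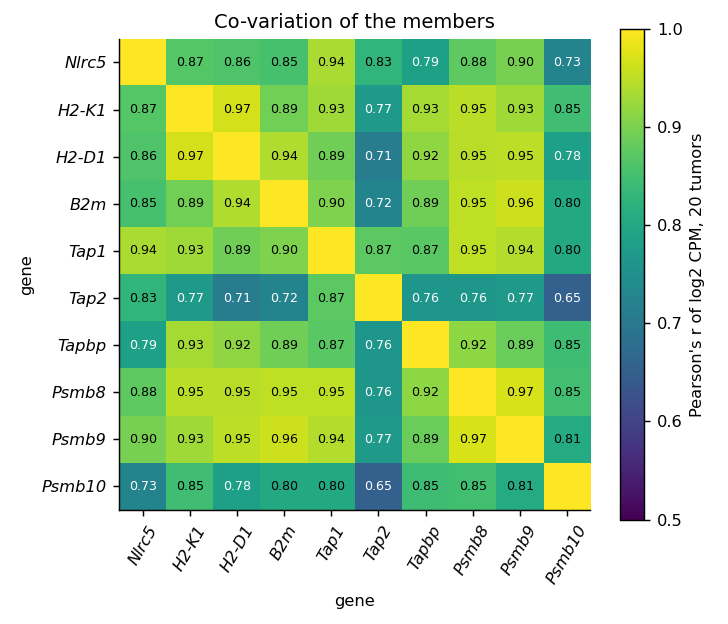
Pearson's r of log2 CPM over the 20 tumors for each pair of members, colored from 0.5 to 1. The rows of Tap2 and Psmb10 are the darkest, and Psmb8 with Psmb9 reaches 0.970.

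Outside the members, the 10 genes with the highest median r with the members were Gm20496 (0.929), Gm11127 (0.929), H2-Q7 (0.923), H2-Q6 (0.922), Gbp2 (0.916), Lgals9 (0.914), H2-Q4 (0.914), Sp100 (0.913), Parp14 (0.913) and Ifi47 (0.907). H2-Q4, H2-Q6 and H2-Q7 are nonclassical class I genes, and Gbp2 encodes an interferon-induced guanylate-binding protein. Gm20496 overlaps Psmb8 by 2139 bases and Tap2 by 1923 bases, and held 603 to 2372 counts per tumor, 47.7% of the counts of Psmb8 and 37.8% of those of Tap2 over all tumors. Whether its counts and theirs were separated by strand is not stated, so these genes are uncertain, as are near-identical H2 copies. Likewise uncertain are Psmb9, since the counts of the overlapping Tap1 came to 275% of its own, Tap2, since those of Gm15821 came to 33.3%, and Tapbp, since those of Zbtb22 came to 19.2%.

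Comparison of Lo with Hi asked whether the only labelled groups differ in the pathway. All 10 members were higher in Lo, by a log2 fold change of 0.16 for Psmb10 to 0.99 (standard error 0.32) for Nlrc5, with 0.69 (0.24) for B2m and 0.67 (0.19) for Tap1. None passed edgeR's quasi-likelihood test after Benjamini-Hochberg adjustment over 18883 genes (lowest adjusted p = 0.637, for Tap1), although 8 of 10 had an unadjusted p under 0.05. Over all genes 0% were called in either direction, 1045 genes had an unadjusted p under 0.05, and DESeq2 called 1 gene, which was no member. The median log2 fold change was 0.58 over the members and 0.00 over all genes tested. The groups overlapped for every member.

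Leukocytes express the whole pathway, so each gene was next fitted against the mean log2 CPM of 10 leukocyte markers such as Ptprc (CD45). Slopes give the change in log2 expression per log2 unit of the list. They were positive for all 10 members, from 0.43 (standard error 0.25) for Tap2 to 1.91 (0.63) for B2m, but 0 of 10 passed edgeR's test. The lowest adjusted p was 0.0541 (Tapbp, slope 0.88, standard error 0.23), and 7 of 10 had an unadjusted p under 0.05. Of all genes, 0.937% were called with a positive slope, and 10.2% had a positive slope at an unadjusted p under 0.05. DESeq2 called Tapbp (adjusted p = 0.0184) and H2-D1 (adjusted p = 0.0326), so the call on these 2 genes depended on the tool, and it called 2.99% of all genes upward. Within the 11 Hi tumors the slope of Tap2 turned to -0.09, and those of the other 9 members stayed positive. These 9 were steeper than over all 20 tumors, up to 2.70 for H2-D1, 2.45 for Psmb8 and 2.44 for B2m. No member passed edgeR's test there (lowest adjusted p = 0.253, for Psmb8), and 0 genes were called. Without Lo 1 alone, the slope of Nlrc5 turned from 1.02 to -0.16, and those of Tap1 and Tap2 fell from 1.04 to 0.59 and from 0.43 to 0.24. The leukocyte level spanned only 3.57 (Lo 3) to 4.32 (Lo 4) in mean log2 CPM, which limits the power of this fit. This level also moved with the epithelial list (r = 0.759 over 20 tumors), and the part of this in the slopes was not tested.

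Further cell type lists were added after the data were seen, again with 0 of 10 members called by edgeR. Against T cell markers the lowest adjusted p was 0.403, with no member at an unadjusted p under 0.05 and 0.371% of all genes called upward. Against macrophage markers it was 0.0729, with 8 of 10 members at an unadjusted p under 0.05, as 9.41% of genes were with a positive slope, and 1.14% of genes called upward. Against epithelial markers it was 0.481, with no member at an unadjusted p under 0.05 and 1.03% of genes called upward. Only 7 of the 9 T cell markers passed the filter and made up the T cell list. The level of that list was low, from -2.20 in Lo 11 to -0.10 in Hi 5 in mean log2 CPM, which limits fits on it.

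Interferon-gamma is the classical inducer of the pathway, and its targets were used as the next covariate. A list of 13 such targets that holds no member (Irf1, guanylate-binding proteins and others) summed to 211 to 906 CPM in Lo and 146 to 424 CPM in Hi. With the mean log2 CPM of this list as the covariate, all 10 members had a positive slope that passed edgeR's test, when 1.08% of all genes were called in that direction. Nlrc5 was steepest at 1.36 (standard error 0.13, adjusted p = 9.8e-08), a slope above 1. Psmb9 (0.99, standard error 0.08), B2m (0.99, 0.09), Psmb8 (0.91, 0.09) and Tap1 (0.85, 0.06) changed nearly in step with it. H2-D1 (0.78, 0.11) and H2-K1 (0.76, 0.10) followed, and Psmb10 (0.39, 0.07), Tapbp (0.36, 0.05) and Tap2 (0.32, 0.05) were the flattest. The median slope was 0.81 over the members and 0.00 over all genes tested.

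**Figure D3:**
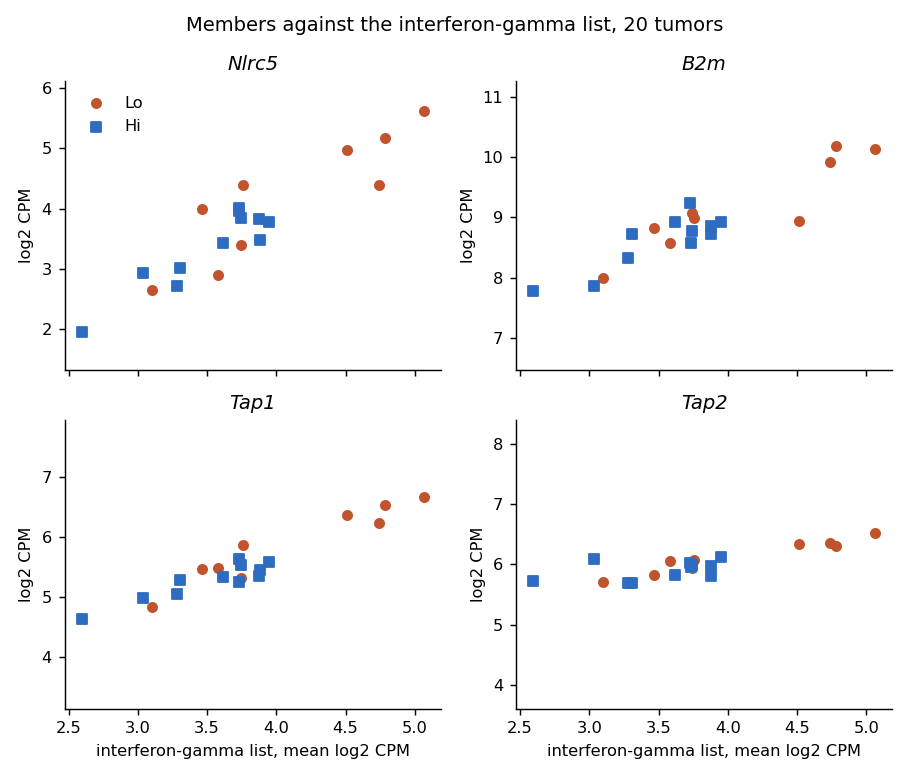
Log2 CPM of Nlrc5, B2m, Tap1 and Tap2 against the mean log2 CPM of the interferon-gamma list in 9 Lo tumors (circles) and 11 Hi tumors (squares), with vertical axes of equal span. Nlrc5 climbs most steeply (slope 1.36) and Tap2 least (0.32), and 4 Lo tumors lie apart at the right.

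The 4 tumors Lo 8, Lo 4, Lo 2 and Lo 1 stood apart at list levels of 4.51 to 5.07, above the other 16 at 2.59 to 3.95 on the log2 CPM scale. Summed T cell markers in Lo 1, Lo 2, Lo 4 and Lo 8 were 5.28, 4.45, 4.50 and 6.04 CPM, inside the range of the Hi tumors. Summed leukocyte markers were lowest of all tumors in Lo 8 (322 CPM). As the mean log2 CPM used in the fits, that list was highest of all tumors in Lo 4 (4.32) and lowest in Lo 3 (3.57). It was 4.25 in Lo 1, 3.93 in Lo 2 and 3.74 in Lo 8. By summed CPM, 5 of the 9 cell type lists were highest of all 20 tumors in 1 of these 4. These were dendritic (32.9 CPM) and B cell markers (1.25 CPM) in Lo 1, cytotoxic cell markers (4.65 CPM) in Lo 2, and fibroblast (1302 CPM) and endothelial markers (121 CPM) in Lo 4. Their part in the slopes was not tested. Without the 4 tumors, an alternative added after the data were seen, 6 of 10 members passed, when 0.429% of all genes were called upward: B2m, Tap1 (0.72), Psmb8 (0.90), Psmb9 (1.10), Nlrc5 (1.48) and H2-D1 (1.02). H2-K1 kept a slope of 0.80 at an adjusted p of 0.126 in edgeR, and Tap2 (0.21), Tapbp (0.35) and Psmb10 (0.22) did not pass. Within the 9 Lo tumors all 10 members passed, when 0.657% of all genes were called upward. Within the 11 Hi tumors, whose list levels spanned only 2.59 to 3.95, Nlrc5 (1.42) and Tap1 (0.65) passed, when 0.138% of all genes were called upward, and all 10 slopes were positive. A test of the difference between the Lo and Hi slopes called 0 of 10 members and 0 of 18883 genes in edgeR (lowest member adjusted p = 0.637, for Psmb10, 0.42 steeper in Lo, standard error 0.15; 1413 genes at an unadjusted p under 0.05).

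Put into 1 model, the leukocyte and interferon-gamma lists gave separate slopes, each at a fixed value of the other. All 10 members passed for the interferon-gamma term (0.29 for Tapbp to 1.47 for Nlrc5), when 0.959% of all genes were called upward. None passed for the leukocyte term (0.794% of genes called upward, lowest adjusted p in edgeR 0.126, for Tapbp). At an unadjusted p under 0.05 were B2m and Tapbp with a positive slope, as were 9.73% of all genes, and Nlrc5 with a negative one. Nlrc5 had a leukocyte slope of -0.93 (standard error 0.43), Tap1 of 0.02 (0.22) and Tap2 of -0.01 (0.17). With the T cell list in place of the leukocyte list, 10 of 10 members again passed for the interferon-gamma list, when 1.16% of all genes were called upward. The low level of the T cell list limits how far this fit accounts for T cell content.

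**Figure D4:**
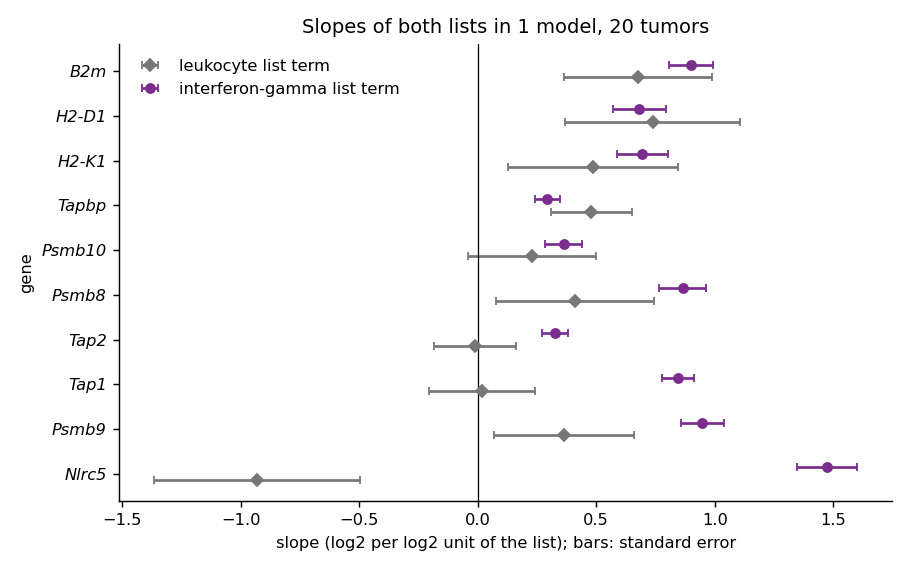
Slope of each member on the leukocyte list (diamonds) and on the interferon-gamma list (circles) from 1 model of 20 tumors, with bars of the standard error. The interferon-gamma slopes lie between 0.29 and 1.47 with short bars. The leukocyte slopes run from -0.93 (Nlrc5) to 0.74 (H2-D1) with wider bars, which cross 0 for Tap1, Tap2 and Psmb10.

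A list of 13 type I interferon targets (Ifit, Oas and related antiviral genes) could not be separated from the interferon-gamma list, since their levels had r = 0.960 over the 20 tumors. With it as the covariate 10 of 10 members passed edgeR's test, from 0.22 (Tap2) to 0.87 (Nlrc5), when 1.2% of all genes were called upward. The interferon-gamma gene itself, Ifng, had 0 to 5 counts per tumor and was at 0 in 10 tumors, where a count of 0 allows up to 3 counts, so it was too low to test.

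Nlrc5 was then used as the covariate for the other 9 members. All 9 passed edgeR's test, from 0.22 (Tap2, standard error 0.03) to 0.65 (Psmb9, 0.07), when 0.943% of all genes were called upward. Its levels followed those of the interferon-gamma list closely (r = 0.918), so the 2 covariates were not independent. Without Lo 1, 7 of 9 passed, when 0.71% of all genes were called upward. Without Lo 1, Lo 2 and Lo 4, 5 of 9 passed (0.35% of all genes called upward). Within the 11 Hi tumors 0 of 9 passed, and 0% of all genes were called (lowest adjusted p in edgeR 0.0917, for Tap1).

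Wider lists of the pathway were read from the fit on the interferon-gamma list, in which 1.08% of all genes were called upward. Of 12 genes of peptide processing and loading, 1 passed upward with the interferon-gamma list: Psme2, a proteasome activator subunit (slope 0.23, adjusted p = 0.033 in edgeR). Its partner Psme1 had a slope of 0.21 (adjusted p = 0.0712). Slopes were 0.04 for Calr and 0.01 for Canx, chaperones of the loading complex, 0.19 for Erap1, the trimming peptidase, and 0.08 for the tapasin relative Tapbpl. The constitutive proteasome subunits Psmb5 (0.00), Psmb6 (0.05) and Psmb7 (0.14) did not pass.

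A list of other class I and class I-like genes, which also holds their MHC neighbor H2-Ke6, had 15 genes tested. Of these, 10 passed upward and 0 downward, when 1.08% of all genes were called upward. Near-identical H2 copies among them are uncertain, as above. H2-Q7 (1.20, standard error 0.17), H2-Q6 (1.14, 0.16), H2-T24 (0.96, 0.12) and H2-Q10 (0.83, 0.13) had the steepest slopes. H2-T23 (0.23) and H2-Q1 (0.56) did not pass, and neither did Cd1d1 (0.33) or Mr1 (-0.06), which present lipids and vitamin metabolites. H2-Ke6, which has a metabolic role, had a slope of -0.02 (standard error 0.05). Among regulators of the pathway, Irf1, which is part of the list that made the covariate, had a slope of 0.29 (adjusted p = 0.08 in edgeR). Slopes were 0.22 for Ciita, the class II counterpart of Nlrc5, 0.05 for Rfx5, which binds the X box, and 0.06 for the receptor gene Ifngr1.

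Ratios within a tumor do not depend on library scaling and were computed from RPKM, 7 in all. Since 4 tumors stood apart on the interferon-gamma list, correlations with it are given over the other 16 and none over all 20, with permutation p-values adjusted over the 7 ratios. The ratios of the 4 tumors are given as ranges. The ratio of Psmb8 to Psmb5, the subunit it replaces, ran from 0.121 to 0.471 (median 0.252) in Lo and from 0.076 to 0.319 (median 0.187) in Hi. It had r = 0.789 with the list (permutation p = 0.00043, adjusted p = 0.0015, rho = 0.603, permutation p = 0.0153). Psmb9 to Psmb6 ran from 0.0348 in Hi 1 to 0.197 in Lo 2 and had r = 0.875 (permutation p = 8e-05, adjusted p = 0.00056, rho = 0.671, permutation p = 0.00611). Psmb10 to Psmb7 ran from 0.149 to 0.369 and did not pass over these 16 tumors (r = 0.432, permutation p = 0.0938, adjusted p = 0.109, rho = 0.494, permutation p = 0.0533). In the 4 tumors set apart it was 0.239 to 0.369, reaching above the other 16 (0.149 to 0.297), so the lack of a call holds for the 16 alone. Without the 2 tumors farthest from the median list level, r was 0.543, 0.707 and 0.512 for the 3 ratios, and within the 11 Hi tumors it was 0.814, 0.897 and 0.605.

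The summed RPKM of the 3 immunoproteasome subunits came to 0.114 of the 3 constitutive ones in Hi 1 and 0.361 in Lo 1 (median 0.194), below 1 in all 20 tumors. With the lengths of the longest coding transcripts it ran from 0.113 to 0.418. Over the 16 tumors it had r = 0.752 with the list (permutation p = 0.0007, adjusted p = 0.00163, rho = 0.624, permutation p = 0.0115) and r = 0.606 without the 2 farthest. This ratio was 0.30 higher in Lo on the log2 scale (mean -2.18 ± 0.49, SD, n = 9, against -2.48 ± 0.32, SD, n = 11). The difference in means did not pass a two-sided exact permutation test (p = 0.114, adjusted p = 0.199 over the 7 ratios). The mean of the 3 log2 ratios of matched subunits was 0.39 higher in Lo (exact permutation p = 0.071).

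Tap1 to Tap2 ran from 0.374 to 0.810 (median 0.597) in Lo and from 0.323 to 0.540 (median 0.477) in Hi, below 1 in all 20 tumors. This depended on the lengths used, since with those of the longest coding transcripts the ratio ran from 0.545 in Hi 10 to 1.37 in Lo 2 and was above 1 in 5 of 20 tumors. Over the 16 tumors it had r = 0.725 with the list (permutation p = 0.00195, adjusted p = 0.00341, rho = 0.529, permutation p = 0.0373), but r = 0.377 without the 2 farthest tumors, so much of this relation rested on those 2. The 4 tumors set apart had ratios of 0.640 to 0.810, all above the other 16 (0.323 to 0.597).

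H2-K1 to H2-D1 ran from 0.409 in Lo 6 to 0.609 in Lo 8, a 1.49-fold range. Unequal loss of reads from the polymorphic alleles of these genes could shift this ratio, which was not tested. Over the 16 tumors it had r = -0.633 (permutation p = 0.00844, adjusted p = 0.0118, rho = -0.488, permutation p = 0.057) and r = -0.318 without the 2 farthest tumors, so this relation too rested largely on them. It did not extend to the 4 tumors set apart, which had ratios of 0.465 to 0.609 against 0.409 to 0.589 in the 16, and r was 0.225 within Lo and -0.702 within Hi. The sum of H2-K1 and H2-D1 to B2m ran from 0.339 in Lo 2 to 0.650 in Lo 7 and had r = -0.179 over the 16 tumors (permutation p = 0.51, rho = -0.238, permutation p = 0.373). The 4 tumors set apart had 0.339 to 0.602, reaching below the other 16 (0.414 to 0.650), and r was -0.520 within Lo and -0.237 within Hi. None of the 7 ratios differed between Lo and Hi after adjustment (lowest adjusted exact permutation p = 0.0839). Before adjustment, the exact permutation p was 0.036 for Psmb8 to Psmb5, 0.0271 for Psmb9 to Psmb6 and 0.0229 for Tap1 to Tap2. These ratios were 0.58, 0.60 and 0.36 higher in Lo on the log2 scale. For the other ratios the unadjusted p was at least 0.114.

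**Figure D5:**
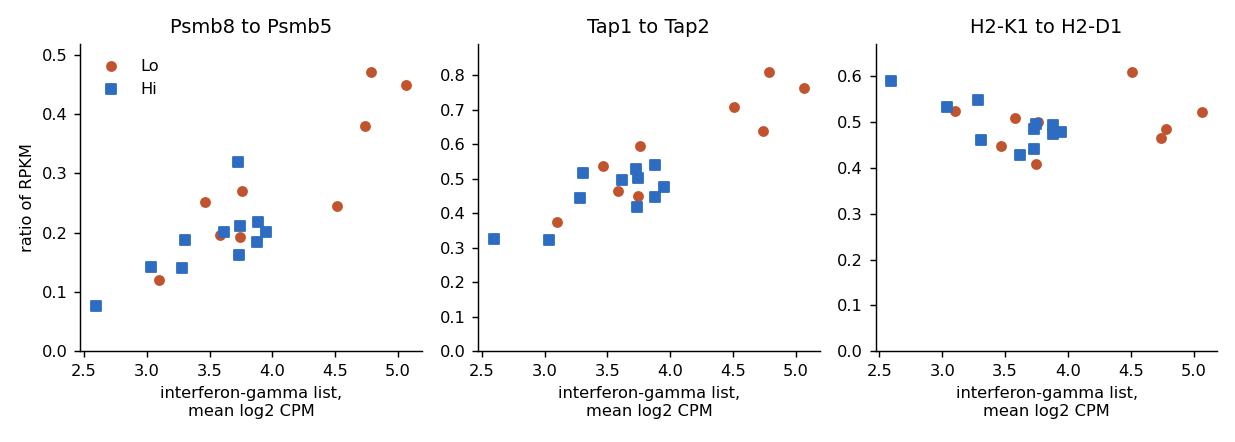
Ratio of RPKM in each tumor (Lo circles, Hi squares) against the mean log2 CPM of the interferon-gamma list. Psmb8 to Psmb5 (range 0.076 to 0.471) and Tap1 to Tap2 (range 0.323 to 0.810) tend to be higher at higher list levels. Both are highest in Lo 2, and H2-K1 to H2-D1 stays between 0.409 and 0.609.

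Gain or loss of a chromosome can change the RNA level of its genes, so each member was compared with the dosage of its chromosome, taken as the median log2 CPM of its other genes relative to all autosomes. Dosage varied little for Chr17 (-0.06 in Hi 3 to 0.08 in Lo 8) and Chr8 (-0.07 to 0.04), and more for Chr2 (-0.05 to 0.23 in Lo 2). B2m had the highest r with its chromosome (0.437, permutation p = 0.0551, adjusted p = 0.551 over the 10 members, rho = 0.0316, permutation p = 0.897), which fell to 0.248 without the 2 farthest tumors. The other 9 members had r from -0.331 (Nlrc5) to 0.236 (H2-K1), with adjusted permutation p of at least 0.594. Within Lo, r for B2m was 0.376, and within Hi it was -0.254. For Nlrc5 and Chr8, r was -0.050 within Lo and -0.670 within Hi. These values within groups were not tested. Against the share of the ribosomal RNA locus, r ran from -0.394 for Psmb10 and -0.243 for Tapbp to 0.087 for Psmb9 (n = 20), and these values were not tested.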

How the data were processed

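Total RNA from 20 tumors was sequenced in pairs from TruSeq mRNA libraries. The authors aligned trimmed reads to mm10 and deposited raw counts per gene, with nothing pooled; the submitters' notes name TopHat2 2.0.12 and featureCounts 1.4.4. Which annotation release and strand mode the counting used is not given in the sources used here. The members, gene lists and tests were chosen with earlier results of these data known, and the text names members, genes of the lists and the 10 genes most like the members. Genes were filtered (filterByExpr, 18883 kept) and tested with edgeR 4.0.16 (TMM, quasi-likelihood, Benjamini-Hochberg at 0.05) in R 4.3.3, with DESeq2 1.42.0 as an alternative. Log2 CPM used a prior count of 2. List covariates were mean log2 CPM, and their own error was not modelled. Correlations used 100000 two-sided permutations, where 1e-05 is the smallest possible p. Values come from separate mice, 1 library each. The fits of Lo against Hi, the leukocyte slope and the interferon-gamma slope were first tested on simulated data with 200 changed genes. At a log2 size of 1, the Lo against Hi fit recovered 156 (7 false calls) and the interferon-gamma fit 188 (8 false calls). The leukocyte fit recovered 114 at a larger size of 1.5 (5 false calls). Counts of calls for the leukocyte and interferon-gamma lists are therefore not of equal power. Protein sequences were not used here, and the count of calls among the regulators is not reported here. Python 3.11.15 and scipy 1.17.1 were used for the other values.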

Additional observations from a re-analysis of the deposited data

How the results depend on the processing

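Under the alternatives, 205 values of the main results stayed within 1.5 times the reported count or within 1 SD or kept their call, and 16 did not. Leaving out 1 tumor at a time gave 0 to 2 members called for the leukocyte slope and 7 to 9 of 9 for Nlrc5. The leukocyte slope had 2 members called without Lo 2 (167 of 18883 genes called upward) and 2 without Lo 11 (271 genes). It had 1 each without Lo 8 (135 genes), Hi 7 (248 genes) and Hi 9 (178 genes). The fewest genes called upward for this slope were 24, without Lo 3. For Nlrc5, 134 genes (without Lo 1) to 186 genes (without Lo 11) were called upward. DESeq2 called 2 members for the leukocyte slope. Within Hi, 2 members were called for the interferon-gamma list, 0 for the type I list, 0 for Nlrc5 and 1 for the interferon-gamma term beside leukocytes, and the second and the fourth of these fits called 0.275% and 0.0635% of all genes upward. Without the 3 tumors highest for B2m, chosen after seeing the data, 5, 4 and 5 members were called for the interferon-gamma list (0.455% of all genes upward), type I list (0.397%) and Nlrc5, and the median pairwise r was 0.793. Without the 4 tumors highest for the interferon-gamma list, also chosen after seeing the data, 6 were called. The median r with chromosome dosage was -0.194 within Hi. The cause of these shifts was not tested, though each of these fits has fewer tumors except that with DESeq2.

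The numbers in the titles did not pair the tumors: r of same-numbered deviations ran from -0.418 to 0.208 and was over 0.1 in 3 of 9 pairs. With the number as a replicate block, 0 members were called between Lo and Hi by edgeR (872 genes at an unadjusted p under 0.05), and the immunoproteasome ratio was 0.34 higher in Lo on the log2 scale (exact sign-flip p = 0.141), so the block changed no call. Counts reached lowest in Nlrc5, at 198 per tumor, and those of Psmb9 began at 333, so the precision of these genes is the lowest by counting.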
